A study of Mus musculus with 6 samples.

Results

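The accessible regions of mouse chromosome 4 were described in 2 ATAC-seq peak lists, 1 from wildtype (WT) dermal fibroblasts and 1 from dermal fibroblasts lacking Lap2alpha (KO). The regions were chosen by chromosome from peaks that had been called on the accessibility signal, and the chromosome was selected with its low number of KO peaks already known. The numbers below are therefore descriptions and no test was applied to them. Chromosome 4 held 6241 of the 106132 WT peaks and 5338 of the 98072 KO peaks. ATAC-seq uses the Tn5 transposase to insert sequencing adapters into open DNA, so that a peak marks a stretch of accessible chromatin. Each list combined 3 libraries of 1 genotype, from cells grown in DMEM with fetal calf serum and antibiotics. The labels give no age, sex or strain, name no allele other than the Lap2alpha KO, and do not say whether the 3 libraries came from separate animals or cultures. With 1 list per genotype there is no spread between replicates, and the depth of the libraries is unknown. A peak present in 1 list only cannot be told apart from a peak lying just under the calling threshold of the other list. In such bulk libraries, fewer cells with an open region and a weaker opening per cell cannot be told apart either.

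Lap2alpha is a splice form of the Tmpo gene product that lies in the nuclear interior and binds A-type lamins, the intermediate filament proteins of the nucleus. Accessible regions fall mainly at gene starts, where transcription begins, and at distal enhancers within or between genes, which vary more between cell states. In fibroblasts, enhancers are known to be rich in sites for AP-1, the dimeric transcription factor that contains Jun, and Jun itself lies on chromosome 4, as do the type I interferon, major urinary protein and Padi gene clusters. Tmpo lies on chromosome 10, and the highest peak at its start stood at percentile 99.0 of the WT list and 98.8 of the KO list. Lap2alpha is 1 splice form of that gene, so this peak does not check the knockout. Of 13 fibroblast marker genes, 12 had a peak at their start in both lists. Among markers of other lineages, Ptprc, Cd3e, Epcam, Krt5, Krt14, Pecam1, Myod1 and Adipoq had no start peak in either list, whereas Mitf and Cdh5 had one in both.

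The 250 bases before the annotated start are shown for 7 genes of chromosome 4 on which the results turn, from RefSeq and the build GRCm38.p6. Capitals mark matches on either strand to 6 motifs. These were TGANTCA (AP-1), GGAATG (TEAD), GGGCGG (GC box), TTGGCA (NFI half-site), TGACGTCA (CRE) and CCAAT (NFY). A run ATTGGCA would hold both the NFI and the NFY letters. Jun, which encodes the AP-1 subunit, had the peak of highest signal on the chromosome in both lists, at chr4:95052223-95052472 on the minus strand:
Jun: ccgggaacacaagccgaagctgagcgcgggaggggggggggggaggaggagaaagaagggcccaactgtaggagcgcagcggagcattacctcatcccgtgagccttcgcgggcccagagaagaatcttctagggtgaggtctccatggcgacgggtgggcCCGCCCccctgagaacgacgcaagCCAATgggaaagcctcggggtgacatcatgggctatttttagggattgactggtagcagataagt
Ror1, a receptor tyrosine kinase-like receptor for Wnt5a, had the largest excess of KO-only peaks, at chr4:100095541-100095790 on the plus strand:
Ror1: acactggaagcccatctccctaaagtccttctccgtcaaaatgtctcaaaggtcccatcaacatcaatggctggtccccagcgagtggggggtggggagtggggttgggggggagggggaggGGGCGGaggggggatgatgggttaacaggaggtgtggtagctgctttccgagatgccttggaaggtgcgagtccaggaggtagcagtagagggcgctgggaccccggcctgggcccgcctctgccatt
Wnt4, a secreted Wnt ligand, and Orm3, an orosomucoid gene, had a start peak in the KO list only, at chr4:137277385-137277634 and chr4:63355908-63356157, both on the plus strand:
Wnt4: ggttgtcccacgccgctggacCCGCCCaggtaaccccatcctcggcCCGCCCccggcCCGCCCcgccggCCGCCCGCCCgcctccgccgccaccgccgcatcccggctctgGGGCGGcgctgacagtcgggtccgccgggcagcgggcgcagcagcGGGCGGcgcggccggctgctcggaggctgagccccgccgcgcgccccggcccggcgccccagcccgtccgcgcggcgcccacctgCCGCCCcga
Orm3: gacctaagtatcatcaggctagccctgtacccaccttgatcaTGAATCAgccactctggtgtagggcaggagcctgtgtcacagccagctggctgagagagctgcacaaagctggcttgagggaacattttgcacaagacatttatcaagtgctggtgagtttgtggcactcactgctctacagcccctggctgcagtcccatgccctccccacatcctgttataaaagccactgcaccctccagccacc
Cavin4, a caveola coat protein of muscle, and Cyp2j6, a cytochrome P450, had a start peak in the WT list only, at chr4:48663264-48663513 on the plus strand and chr4:96553652-96553901 on the minus strand:
Cavin4: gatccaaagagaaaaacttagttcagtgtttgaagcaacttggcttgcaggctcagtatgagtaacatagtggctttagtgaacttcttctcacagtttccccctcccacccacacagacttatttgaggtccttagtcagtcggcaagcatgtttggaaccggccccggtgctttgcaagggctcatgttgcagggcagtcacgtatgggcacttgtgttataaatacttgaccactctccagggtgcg
Cyp2j6: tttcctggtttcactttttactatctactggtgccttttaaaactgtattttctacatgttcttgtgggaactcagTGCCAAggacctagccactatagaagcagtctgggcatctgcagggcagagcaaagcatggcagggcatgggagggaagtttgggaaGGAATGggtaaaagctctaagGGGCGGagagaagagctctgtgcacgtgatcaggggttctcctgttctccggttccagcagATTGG
Ifnz, an interferon zeta gene of a tandem array, had a start peak in both lists, at chr4:88781881-88782130 on the plus strand:
Ifnz: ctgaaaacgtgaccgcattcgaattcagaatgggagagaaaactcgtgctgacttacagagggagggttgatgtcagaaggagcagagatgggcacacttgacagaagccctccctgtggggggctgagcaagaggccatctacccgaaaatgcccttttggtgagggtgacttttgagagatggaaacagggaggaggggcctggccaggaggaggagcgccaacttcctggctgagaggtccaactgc

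The 7 promoters differed widely in base composition. The Wnt4 promoter held 85.2% G or C and 17.6 CpG per 100 bases, with 8 GC boxes. The Orm3 promoter held 54.4% G or C and no CpG, and its single match was an AP-1 motif. Cavin4, at 48.8% G or C, matched none of the 6 motifs. Jun held 1 GC box and 1 CCAAT, and Ror1 held 1 GC box. Over 17492 promoters of protein-coding genes, 42.7% held a GC box, 36.5% CCAAT, 11.8% the NFI half-site, 11.6% the TEAD motif, 6.18% the AP-1 motif and 1.98% the CRE. Of the 1067 chromosome 4 promoters, 49.4% held a GC box and 5.62% the AP-1 motif. Where the gene start was open in both lists (617 promoters), the median G or C content was 60.8% and 62.7% held a GC box. Where it was open in neither (420 promoters), these values were 51.2% and 30.5%. The promoters open in WT only (20) and in KO only (10) had medians of 54.2% and 54.6% G or C, and 10 and 2 of them held a GC box. AP-1 matches were in 2 of the 20 and 2 of the 10. A match of letters is no evidence of binding, and a missing match says nothing about the factor.

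Fewer peaks were called on chromosome 4 in KO than in WT cells. The KO list held 85.5% as many peaks as the WT list there, against 93.6% on the other autosomes together and 92.4% over the genome. Only chromosome 19, at 78.8%, had a lower value among the autosomes, and chromosome 5 was next at 86.6%. WT peaks covered 4.15 Mb of chromosome 4 and KO peaks 3.44 Mb. Sharing was defined as an overlap of at least 1 bp. Of the WT peaks of chromosome 4, 4673 overlapped a KO peak (74.9%, 95% Wilson interval 73.8 to 75.9) and 1568 did not. WT-only peaks thus made up 25.1% of WT peaks there, against a background of 20.4% over the genome. Of the KO peaks, 4806 overlapped a WT peak (90.0%, interval 89.2 to 90.8) and 532 did not. KO-only peaks made up 9.97% of KO peaks on chromosome 4, against a background of 13.4%. The intervals cover counting error only. Peaks also split and merged, since 229 WT peaks overlapped more than 1 KO peak and 111 KO peaks overlapped more than 1 WT peak.

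The genotype-only peaks of chromosome 4 were mostly weak and narrow. A signal percentile is the rank of the deposited signal within the whole list of its genotype, where 100 is the highest. The median percentile was 19.2 for WT-only peaks and 18.1 for KO-only peaks, against 61.7 and 52.8 for the shared peaks of each list. WT-only peaks had a median width of 233 bp, and KO-only peaks one of 270 bp. Genotype-only peaks of the other autosomes were similar, with median percentiles of 17.6 (WT-only) and 16.4 (KO-only). Their median widths were 229 and 243.5 bp. The lowest 25% of the WT list held 968 of the 1568 WT-only peaks of the chromosome (61.7%), and the lowest 25% of the KO list held 343 of the 532 KO-only peaks (64.5%). Of WT peaks that low, 35.9% were shared (interval 33.5 to 38.3), against 49.1% on the other autosomes. Of KO peaks that low, 74.96% were shared (interval 72.6 to 77.2), against 62.9% on the other autosomes. In the highest 25% sharing reached 99.0% for WT and 99.5% for KO peaks, with 15 WT-only and 6 KO-only peaks left. Many peaks lay close to a peak of the other list without touching it, namely 367 of the WT-only and 103 of the KO-only peaks within 1 kb. By contrast, 115 WT-only and 19 KO-only peaks lay over 100 kb from any peak of the other list.

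Among shared peaks, the KO percentile was usually the lower one on chromosome 4. There were 4228 pairs in which 1 WT peak overlapped exactly 1 KO peak and the reverse. Their summits lay within 100 bp of each other in 92.9% of pairs. KO stood higher in 1004 pairs (23.7%), against 42.3% of pairs on the other autosomes, and the median KO minus WT difference was -6.00 percentile points. The lists differ in length, and ranks from lists of different lengths show no change by themselves. Ranked instead among the 75840 pairs of the genome, an equal number in both lists, the KO rank was higher in 30.6% of chromosome 4 pairs and in 52.2% of pairs on the other autosomes. The signal of a peak sums over its width, so the width was also compared. The KO peak was the wider of the pair in 33.9% of chromosome 4 pairs (48.1% on the other autosomes), with median widths of 567 bp in WT and 478.5 bp in KO. With the signal divided by the width, the KO percentile was higher in 36.9% of pairs, against 46.6% on the other autosomes.

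The lower peak number ran along most of the chromosome. In 28 of its 32 blocks of 5 Mb the KO list held a smaller percent of the WT number than over the whole genome, against 48.8% of 459 blocks on the other autosomes. The median over blocks was 82.6%, against 92.9% for blocks of the other autosomes. The lowest block, from 75 to 80 Mb, held 36 WT and 10 KO peaks (27.8%) and only 2 genes by their midpoint. The block from 35 to 40 Mb held 53 and 16 peaks (30.2%), and that from 70 to 75 Mb held 61 and 29 (47.5%). The first of these holds Ptprd, a receptor tyrosine phosphatase gene, and the second Lingo2, a neuronal leucine-rich repeat gene. The 16 blocks with fewer than the median of 32.5 genes together stood at 81.4%, and the other 16 at 87.3%. The blocks from 95 to 100, 100 to 105 and 105 to 110 Mb were the ones above 100%, at 110%, 113% and 107%, and the block from 150 to 155 Mb followed at 96.6%.

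**Figure D1:**
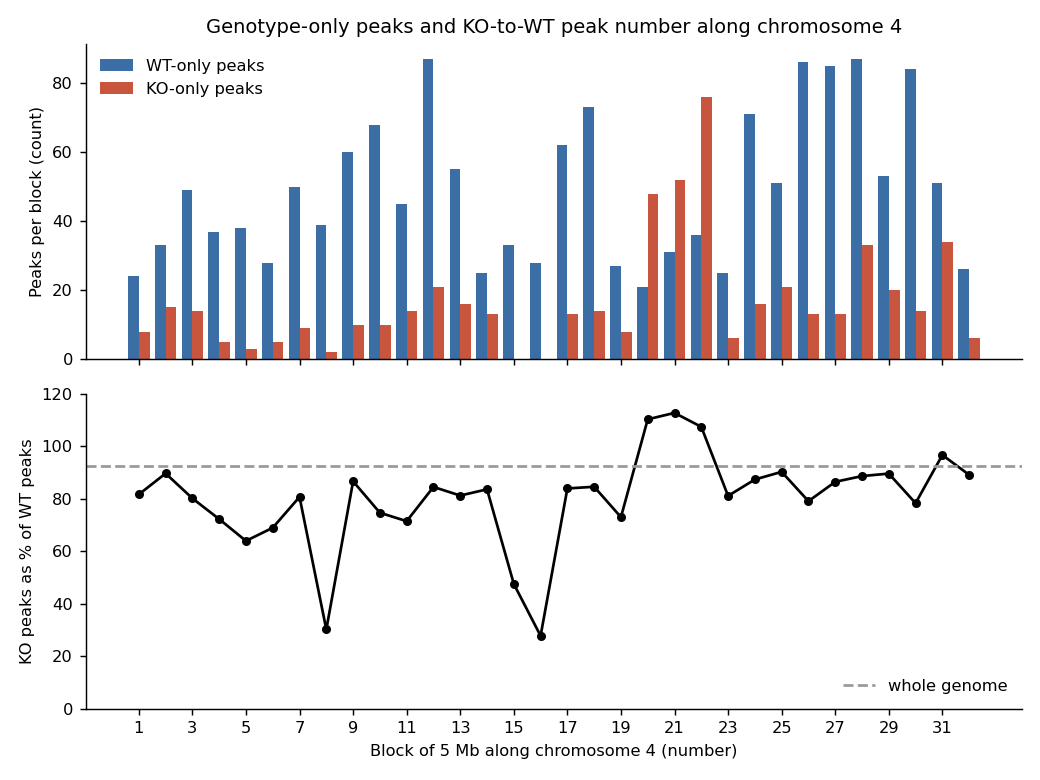
Genotype-only peaks (upper panel, count) and KO peaks as a percent of WT peaks (lower panel) in the 32 blocks of 5 Mb of chromosome 4, numbered from its start. WT-only bars are taller in every block except 20 to 22, where the KO percent lies between 107% and 113%, above the dashed whole-genome value of 92.4%.

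A stretch of chromosome 4 ran, by its totals, opposite to the rest. It was found in the data by a running median over 25 pairs and spans chr4:94049268-110020606, or 15.97 Mb, joined from 6 runs with gaps of up to 2 Mb. Within it there were 738 WT and 805 KO peaks (109%), with 93 WT-only and 184 KO-only peaks. It thus held 11.8% of the WT peaks of the chromosome, 5.93% of its WT-only peaks and 34.6% of its KO-only peaks. Of its pairs, KO stood higher in 387 of 549 (70.5%), with a median difference of 4.20, and the KO peak was the wider one in 71.9%. In the rest of the chromosome there were 5503 WT and 4533 KO peaks (82.4%), the KO percentile was higher in 617 of 3679 pairs (16.8%), with a median difference of -7.17, and the KO peak was the wider one in 28.2%. Windows inside it also went the other way. From 102 to 103 Mb, 15 peaks were found in WT alone and 11 in KO alone, and the median difference was -3.68. From 98 to 99 Mb these counts were 7 and 2, and the median was -0.43. The window from 104 to 105 Mb, with 10 peaks in each list, had a median of -14.9. Over the whole stretch, the direction held with the rank among pairs, where 77.4% of pairs in the stretch and 23.6% outside it were higher in KO. With signal divided by width the values were 60.3% and 33.5%. The stretch was delimited by these pair differences, so they are a description and support nothing, and the peak numbers and widths come from the same lists.

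At the edges of the stretch the direction changed within few pairs, as its definition implies. Of the last 25 pairs before it, 5 were higher in KO, with a median difference of -10.1. Of the first 25 pairs in it, 21 were higher in KO, with a median of 10.1. At its other end, 17 of the last 25 pairs inside and 8 of the first 25 pairs outside were higher in KO, with medians of 0.69 and -7.02. In 118 windows of 1 Mb with at least 20 peaks, WT-only peaks outnumbered KO-only peaks in 97 and the reverse held in 18. Of those 18 windows, 11 reached into the stretch. The other 7 began at 9, 14, 54, 87, 127, 137 and 151 Mb.

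**Figure D2:**
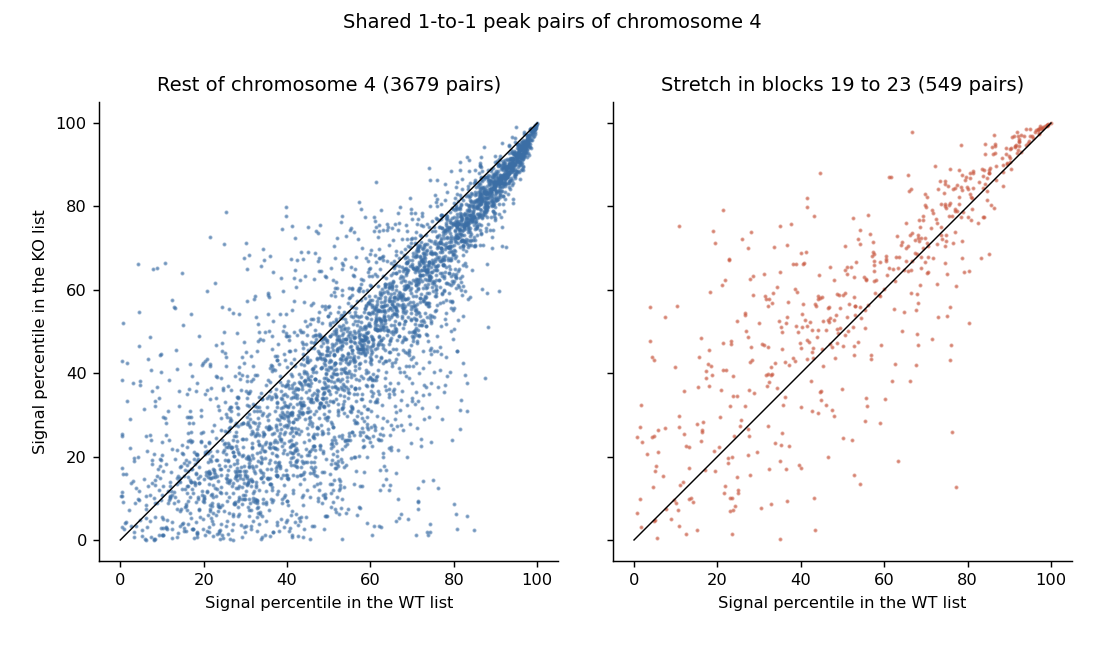
Signal percentile in the KO list against that in the WT list for each 1-to-1 pair of chromosome 4, outside (left, 3679 pairs) and inside (right, 549 pairs) the stretch found in blocks 19 to 23. The line marks equal percentiles, and 16.8% of the pairs on the left and 70.5% on the right lie above it.

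Of the autosomes, chromosome 4 was neither the only one nor the farthest from the genome. Its median KO minus WT rank among pairs was -4.37, the second lowest of the autosomes after chromosome 19 at -8.12, with chromosome 5 at -1.29. The stretch, at 6.81, lay close to the autosome at the other end, chromosome 18 at 7.19, and the rest of chromosome 4 was at -5.26. Over the 19 autosomes the peak number and the pair rank moved together, but both come from the same pair of lists and no test was made. The X chromosome, which the whole-genome values include, held 74.5% as many KO as WT peaks. Its median rank difference was -2.42.

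**Figure D3:**
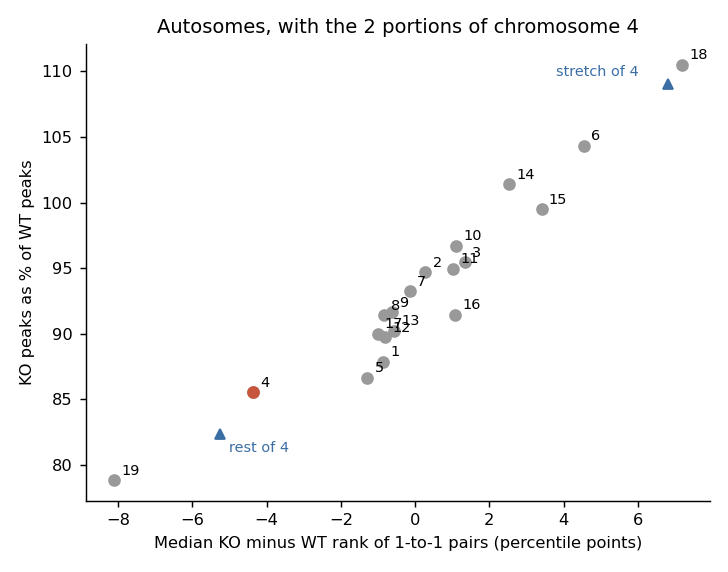
KO peaks as a percent of WT peaks against the median KO minus WT rank of 1-to-1 pairs, 1 point per autosome. Chromosome 4 (red, 85.5% and -4.37) lies low and to the left, and its stretch (upper triangle, 109%) and its remainder (lower triangle, 82.4%) lie apart from each other.

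The lower number of KO peaks on chromosome 4 was seen away from gene starts. Peaks with their summit within 1 kb of a gene start numbered 861 in WT and 842 in KO, or 97.8%, close to the 96.8% of the other autosomes. Peaks in gene bodies numbered 2646 and 2264 (85.6%, against 94.0%). Between genes and up to 100 kb from a gene end there were 2067 and 1692 (81.9%, against 93.1%), and farther away 667 and 540 (81.0%, against 89.1%). Of the WT-only peaks 81 (5.17%, Wilson interval 4.18 to 6.38) lay at a gene start, and of the KO-only peaks 16 (3.01%, interval 1.86 to 4.83). On the other autosomes these shares were close to that, at 5.08% and 3.61%. With a reciprocal overlap of at least 50% required for sharing, the order of the chromosome 4 shares turned. They were then 7.55% for WT-only and 10.7% for KO-only peaks. Among shared WT peaks (overlap of at least 1 bp) the share was 16.7%. Gene-start peaks were still ranked lower in KO, since the median percentile of shared peaks at a gene start was 89.3 in the WT list and 81.8 in the KO list. On the other autosomes these medians were 88.3 and 86.6.

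**Figure D4:**
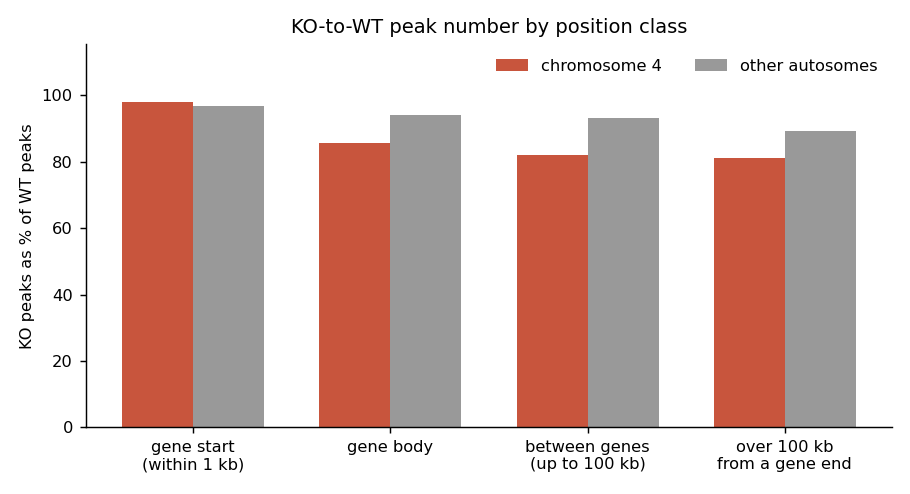
KO peaks as a percent of WT peaks by the position of the peak summit, for chromosome 4 (red) and the other autosomes (grey). Both bars are near 97% at gene starts, and the chromosome 4 bars are lower in the other 3 classes, at 81.0% to 85.6%.

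Most genes of chromosome 4 kept the same gene-start state in both lists. A gene was called open where a peak overlapped the 1 kb on either side of a start. Of 1328 protein-coding genes, 758 were open in both lists, 532 in neither, 26 in WT only and 12 in KO only. Those 26 are 1.96% of genes, against a background of 2.02% over the genome, and the 12 are 0.904%, against 1.11%. Both shares are near the background. Among genes open in both, the median start percentile was 91.6 in WT and 86.4 in KO. In the stretch, with 67 such genes, it was 92.7 in WT and 94.7 in KO.

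The 26 genes open in WT only rested on peaks of all ranks. Tcea3, a transcription elongation factor gene, had a start peak at percentile 92.4, but that peak overlapped a KO peak lying farther from the start, and 5 of the 26 rested on such a shared peak. Lingo2 had a start peak at 89.4, with the nearest KO peak 297209 bp away, and Cavin4 one at 80.7. Echdc2, at 79.9, and Cyp2j6, at 76.2, were the ones inside the stretch. Zbtb8a, a zinc-finger gene, had one at 68.8. Isg15, which encodes an interferon-induced ubiquitin-like protein, had one at 50.5. Nppa, the gene of atrial natriuretic peptide, had one at 47.5 and Cntfr, the receptor of ciliary neurotrophic factor, one at 38.4. Acer2 and Trim62 had theirs at 18.5 and 20.6.

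The 12 genes open in KO only included a run of neighbours. Orm1, Orm2 and Orm3, which encode the acute-phase protein orosomucoid, lie side by side from 63344556 to 63365877 and had no WT peak assigned to any of them. Their KO start peaks stood at percentiles 19.7, 1.65 and 69.8. Orm1 had no promoter entry, and its peak lay beside an end of the gene whose strand was not given. Padi3, a peptidyl-arginine deiminase gene of skin and hair, had a KO start peak at 69.0 that overlapped a WT peak lying farther away. Zfp462 reached 59.5, also on a shared peak. Wnt4 had a KO start peak at 39.0, whereas the nearest WT peak lay 5629 bp away. Svep1, which encodes a large extracellular matrix adhesion protein, had one at 7.59, and 4 genes of this group, C130073F10Rik, Acot11, Dmrtb1 and Calr4, lay in the stretch at percentiles from 7.45 to 35.6.

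Each peak was given to its nearest gene, by the distance to either end and up to 100 kb. By that count 536 genes of chromosome 4 (40.4%) had more WT-only than KO-only peaks, against a background of 30.6% over the genome. More KO-only than WT-only peaks were found at 127 genes (9.56%), against 16.0%. In the stretch the proportions were the other way round, with 26 of 123 genes (21.1%) on the WT side and 48 (39.0%) on the KO side. Outside it they were 510 (42.3%) and 79 (6.56%) of 1205 genes.

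The 6 genes with the largest excess of WT-only peaks (Ifne, Nfib, Lingo2, Runx1t1, Trabd2b and Tnfrsf1b) all lay outside the stretch. Another 6 genes tied at a balance of -7, the balance being KO-only minus WT-only peaks. Of these Bach2 and Shb were taken by position, while Tlr4, Ptprd and Epha2 also lay outside the stretch and Pde4b, with 10 WT-only and 3 KO-only peaks, lay in it. Nfib, a nuclear factor I transcription factor, had 35 WT and 25 KO peaks, of which 12 were WT-only and none KO-only. Its start peak was at percentile 95.3 in WT and 88.4 in KO, and KO stood higher in 2 of its 22 pairs. Runx1t1, a transcriptional corepressor, had 21 WT and 12 KO peaks, 9 of them WT-only, and a start at 98.4 and 95.03. Trabd2b, a Wnt-degrading protease, had 24 and 15 peaks with 9 WT-only. Tnfrsf1b, the second receptor for tumour necrosis factor, had 20 and 12 peaks with 8 WT-only. Shb, a signalling adaptor, had 22 and 15 peaks with 7 WT-only, and Bach2, a transcriptional repressor, had 39 and 32 peaks with 8 WT-only and 1 KO-only. These 6 genes had a start peak in both lists. The WT-only peaks of Nfib ranged from percentile 1.03 to 52.2 and those of Bach2 from 9.89 to 33.2, so they were weak ones. The sizes of these balances depended on weak peaks. In the upper 50% by signal, sharing was computed anew among the kept peaks. A peak whose partner fell below the cut then counted as genotype-only. Counted in this way, all balances but that of Bach2 were smaller. They were -3 for Nfib, -1 for Runx1t1, -5 for Trabd2b, -1 for Tnfrsf1b and 0 for Shb. The balance of Bach2 went from -7 to -9, although none of its 8 WT-only peaks reached the upper 50%. The -9 therefore rests on WT peaks that were shared in the full lists.

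Lingo2 had no assigned peak in the KO list. It spans chr4:35696778-36951744, and the 10 WT peaks assigned to its ends, from percentile 1.62 to 89.4, had no KO counterpart. Inside the gene there were 30 WT peaks and 7 KO peaks, covering 14.6 kb and 2.74 kb, with 23 WT-only and no KO-only peaks. All 7 pairs within the gene were lower in KO, with a median difference of -40.6 percentile points. Ptprd, which was picked after its values were seen because it lies in the lowest block, held 27 WT and 8 KO peaks within its 2271 kb, with 21 WT-only and no KO-only peaks. Both genes are best known from neurons. Of 16 neural genes on the list used here, none had a start peak in both lists, 1 had one in WT only and 15 had none. These 16 genes together had 52 WT and 26 KO peaks assigned, with 32 WT-only and 6 KO-only. Lingo2 held 10 of the WT-only peaks, Ptprd 7 and Elavl4 6, so the total rests largely on few genes. By gene, 7 had more WT-only peaks, 3 had more KO-only peaks and 6 had equal numbers. Over all genes of the chromosome, 1258 of 5267 assigned WT peaks were WT-only and 367 of 4500 KO peaks were KO-only. The balance of Lingo2 was -2 in the upper 50% by signal and -23 by gene body.

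Of the 8 genes with the largest excess of KO-only peaks, 5 lay in the stretch. Ror1 spans chr4:100095791-100444806 and had 4 WT peaks, at percentiles 84.1, 86.5, 25.8 and 27.4. Each was shared, and the overlapping KO peaks stood higher, at 92.6, 94.9, 72.1 and 70.1. The KO list held 9 more peaks at Ror1, from 5.89 to 82.0. Within the body of the gene 5 WT and 22 KO peaks had their summit, covering 3.76 kb and 11.6 kb. Jak1, the kinase of cytokine receptors, had 16 and 20 peaks, with 1 WT-only and 6 KO-only. Plpp3, a lipid phosphate phosphatase, had 11 and 17 peaks, and Cdkn2c, a cyclin-dependent kinase inhibitor, 9 and 13, each with 4 KO-only and no WT-only peaks. In the upper 50% by signal, with sharing computed anew, the balance was 3 for Jak1 and 2 for Plpp3, Cdkn2c and Jun alike. Counted by the gene body that holds the summit, it was 18 for Ror1, 2 for Jak1, 1 for Plpp3 and Cdkn2c alike, and 0 for Jun. The Cdkn2c start was among the highest of the chromosome in both lists, at 99.3 and 99.6.

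Jun had 19 WT and 21 KO peaks, and all 19 of the WT peaks were shared. The start peak spanned chr4:95049803-95054615 in WT and chr4:95049771-95054881 in KO, at percentiles 99.98 and 99.98. Around Jun, KO stood higher in 11 of 14 pairs, with a median difference of 7.30. Upstream of the start, 3 WT peaks at 93.7, 87.4 and 55.7 were covered by 1 KO peak at 99.9, chr4:95097658-95102425. Next to it 2 WT peaks at 98.2 and 65.6 were covered by 1 KO peak at 99.6. The 5 KO-only peaks at Jun were weaker, from 5.48 to 45.1.

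The other 3 of these genes lay outside the stretch and had no WT-only peak. Col27a1, which encodes a fibrillar collagen chain, spans chr4:63214009-63334991 and had 12 WT peaks, each shared, and 18 KO peaks. Its 7 KO-only peaks lay between percentiles 5.81 and 48.6. KO stood higher in 5 of its 10 pairs, with a median difference of 1.20, and its strongest peak was at 91.5 in WT and 89.2 in KO. In the upper 50% by signal, with sharing computed anew, its balance was 2 in place of 7. None of these 7 KO-only peaks was in the upper 50%. Foxo6, a forkhead factor, had 7 and 13 peaks with 6 KO-only, from 0.235 to 32.5. Wnt4 had 8 and 13 peaks with 5 KO-only, from 7.38 to 49.3, and the KO percentile was higher in 6 of its 8 pairs. All KO-only peaks of Foxo6 and Wnt4 were in the lower part of the list, so the cut to the upper 50% by signal removed them. With sharing computed anew in the cut lists, KO-only minus WT-only peaks stood at -1 for both genes. That value rests on WT peaks that were shared in the full lists. By gene body the balance was 2 for Foxo6 and 1 for Wnt4. Ephb2, an ephrin receptor near Wnt4, and Zbtb40 each had 3 KO-only and no WT-only peaks. These neighbours were picked after their values were seen.

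**Figure D5:**
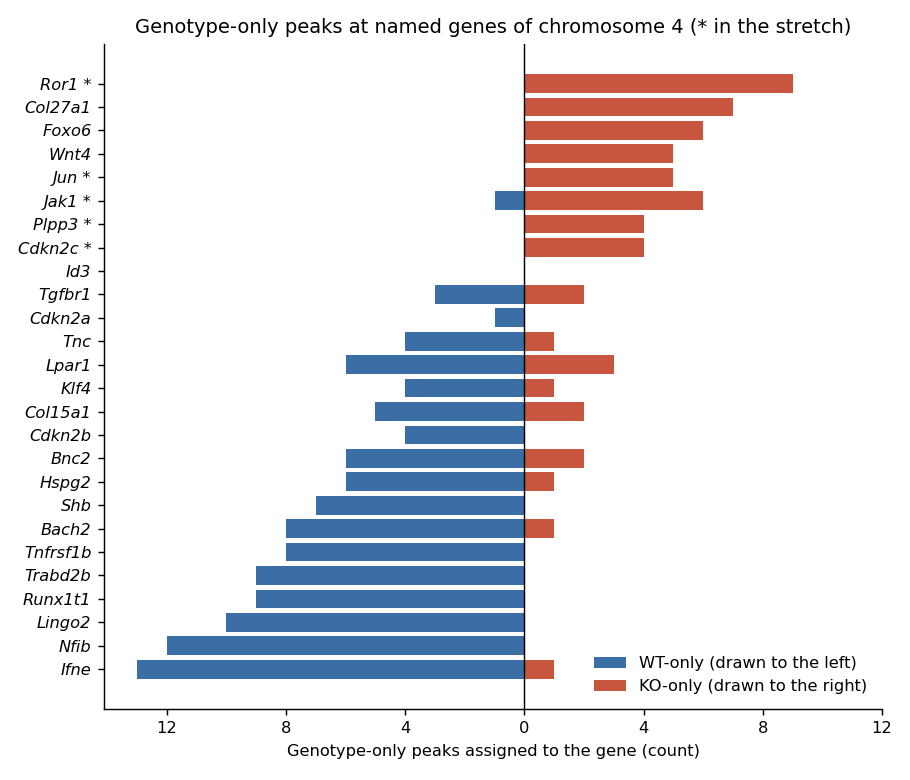
Genotype-only peaks assigned to 26 named genes of chromosome 4, with WT-only counts drawn to the left (blue) and KO-only counts to the right (red), and an asterisk for genes in the stretch. Ror1 leads on the KO side with 9 and Ifne on the WT side with 13 against 1.

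A pair of paralogous nuclear factor I genes on the chromosome went opposite ways. Nfia lies in the stretch and Nfib outside it, and both were compared after their values were seen. Within the body of Nfia 28 WT and 44 KO peaks had their summit, with 1 WT-only and 16 KO-only peaks, covering 24.1 kb and 37.8 kb. In that gene KO stood higher in 19 of 21 pairs. Within Nfib there were 21 WT and 13 KO peaks, with 8 WT-only and no KO-only peaks, and the KO percentile was higher in 2 of 13 pairs. Glis1, a zinc-finger factor in the stretch, held 24 WT and 27 KO peaks, with the KO percentile higher in 18 of 19 pairs. Prdm16, a zinc-finger factor of brown fat, lies outside the stretch and held 1 WT peak at percentile 30.3 and 8 KO peaks from 21.9 to 70.0, of which 7 were KO-only.

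The strongest genotype-only peaks were also described one by one. In the WT list the highest was the Lingo2 start peak, chr4:36951870-36953588, at percentile 89.4. It was followed by chr4:72946314-72947425 at 85.1, which lies 94163 bp from an end of Aldoart1, an aldolase gene. A peak at 84.4, chr4:72656080-72656847, lies over 100 kb from any gene end. Agmat, which encodes agmatinase, had one at 83.7, located 11552 bp from its end, and Cda, the cytidine deaminase gene, one within its body at 77.3. In the KO list the highest lay between genes at chr4:142844409-142846050, at 92.4 and 261834 bp from the nearest gene end, that of Prdm2. The nearest WT peak was 175319 bp away. The second, at 87.4, was chr4:153250745-153252076, nearest to Ajap1. Ror1 had the third, chr4:100187655-100188873 at 82.0, in the gene body. Zbtb40 had one at 76.6 in its body, Jak1 one at 72.6 between genes, and Prdm16 one at 70.0 in its body.

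Some shared pairs differed far more than the median. The widest difference toward KO was at chr4:95187926-95188678, 136070 bp from Jun, where a WT peak of 227 bp at percentile 10.7 met a KO peak of 753 bp at 75.3. In Glis1 a WT peak at 21.3 met a KO peak at 79.1, and near Tal1, a blood and endothelial transcription factor, one at 7.79 met one at 65.1. Toward WT the widest was at chr4:7669928-7671389, nearest to Car8, where a WT peak of 1462 bp at 84.7 met a KO peak of 239 bp at 2.40. At 843 bp from the far end of Cmpk1, a nucleotide kinase gene, and 27458 bp from its start, a WT peak at 80.6 met a KO peak at 2.75. Within Lingo2 a WT peak at 83.1 met a KO peak at 5.87. In all of these the side with the lower percentile was also the narrower peak. The pairs that stood highest in both lists differed little. Trappc3, a vesicle tethering factor, was at 99.9 in both, Klhl21 at 99.9 and 99.7, and St3gal3, a sialyltransferase, at 99.5 and 99.6.

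Genes were also counted by function, without a test. Of 17 matrix genes 9 were open at their start in both lists, 7 in neither and 1, Svep1, in KO only. Of their 144 WT peaks 34 were WT-only, and of their 130 KO peaks 17 were KO-only. The same counts over all genes of the chromosome were 1258 of 5267 and 367 of 4500. Hspg2, the perlecan gene, was the highest of them next to Mmp23, at 99.5 in WT and 97.4 in KO. Tnc, which encodes tenascin C, was at 96.5 and 89.6, with 4 WT-only peaks and 1 KO-only peak. Of 35 transcription factor genes 18 were open in both lists, 15 in neither and 2, Pou3f1 and Hes2, in WT only, and 82 of their 342 WT peaks and 23 of their 286 KO peaks were genotype-only. Klf4, a reprogramming factor, was at 96.0 and 91.5, and Id3, a dominant-negative helix-loop-helix protein, at 99.3 and 98.4 with no genotype-only peak. Of 28 receptor, ligand and signalling genes 16 were open in both, with 45 of 225 WT and 33 of 215 KO peaks genotype-only. In that list Tlr4, the endotoxin receptor, had 18 WT and 11 KO peaks with 7 WT-only, and Tgfbr1 had a start at 76.9 and 70.0.

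Broadly expressed and cell cycle genes were open nearly throughout. Of 25 broadly expressed genes 24, and of 26 cell cycle and genome maintenance genes 25, had a start peak in both lists, and none had one in 1 list only. Cdkn2a and Cdkn2b, the neighbouring inhibitor genes that mark cellular senescence, stood at 95.7 and 96.5 in WT and at 94.1 and 94.3 in KO. KO stood higher in 0 of the 7 pairs of Cdkn2a and in 1 of the 14 of Cdkn2b. Over all 1328 genes of the chromosome 57.1% were open in both lists, and the median balance of KO-only and WT-only peaks was 0. It was -1 for the matrix, transcription factor, cell cycle and broadly expressed lists and 0 for the signalling and neural lists.

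Markers of other cell types and tissue-specific families were mostly without a start peak. Of 12 leukocyte markers 9 had none, 2 (Tnfrsf9 and Tnfrsf4) had one in both lists and Lck, a T cell kinase gene, had one in WT only at 83.7. That peak overlapped a KO peak farther from the start. Of 4 endothelial markers 2 were open in both lists, Gja4 at 78.2 and 71.2 and Tek at 39.6 and 18.1. Neither of the 2 melanocyte and Schwann lineage markers was open in either list. No start peak was called in either list at any of 22 major urinary protein genes, 11 Skint genes or 24 olfactory receptor genes. Of 27 Zfp genes 11 were open in both lists, 3 in WT only (Zfp981, Zfp985 and Zfp991) and 1, Zfp462, in KO only. Start peaks in both lists were found at 4 of 7 TNF receptor family genes, 1 of 10 Cyp4 genes, 1 of 27 Prame and Oog genes, 1 of 4 Pla2g2 genes, 1 of 7 Ccl chemokine genes and 0 of 5 Padi genes. Of 4 muscle markers Nppb was open in both lists and Nppa in WT only. The cell type markers concern single genes, and their part in the peak differences was not tested.

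The type I interferon cluster held an array of mostly evenly spaced peaks. Between chr4:88756838-88806617, 15 interferon zeta-like genes lie in tandem, and 15 WT peaks each overlapped exactly 1 KO peak. Peaks 2 and 3 of the array were both nearest to Gm13283, so by nearest gene there was not 1 peak per gene. The median distance between neighbouring WT summits was 2934 bp, with a range of 2793 to 10283 bp. The longest distance lay between peaks 3 and 4. The peaks stood at percentiles 86.7 to 96.4 in WT, with a median of 91.3, and 81.9 to 92.7 in KO, with a median of 86.8. The KO percentile was lower for all 15. Ifnz itself was at 90.3 in WT and 86.0 in KO. The promoter printed above for Ifnz was 99.6% to 100% identical to those of its neighbours Gm13276, Gm13277 and Gm13278 in the 6 comparisons among them. Over the whole array the median identity was 36.6% over 105 comparisons, the lowest at 31.1% and 19 of them at 95% or more. The comparison allowed no gaps and only a limited shift between annotated starts. Copies whose annotated starts differ by more would score low however alike they are. The low values therefore do not show that these copies differ. How reads of the near-identical copies were placed is not given in the sources used here, so the values of those copies are uncertain. Elsewhere in the cluster, Ifnb1, the interferon beta gene, had a start peak at 55.0 and 46.3. Ifne, the interferon epsilon gene, had no start peak in either list but 35 WT and 31 KO peaks assigned, with 13 WT-only and 1 KO-only. Its balance of -12 was -4 in the upper 50% by signal and 0 by gene body.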

How the data were processed

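Accessible chromatin was measured by ATAC-seq in 3 WT and 3 Lap2alpha KO libraries. The submitters' processing notes name GRCm38 as the build and list deepTools 3.5.1, Bowtie2 2.5.1 and Genrich as tools. The sources used here do not state how the 3 libraries of a genotype were combined or whether reads were shifted for Tn5. The authors deposited 1 peak list per genotype, with a signal for each peak (an area that grows with width, at least 200 in both lists), the −log10 of the summit p-value (lowest 4.94 in WT and 4.87 in KO) and the summit offset. No read totals were given, so depth is unknown, and the number of weak peaks depends on it. The signal is the authors' own value and was used only to rank peaks within a list.

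Sharing, blocks by summit, gene starts and pairs were computed with Python 3.11.15, numpy 2.4.6, pandas 2.3.3 and scipy 1.17.1. Gene starts were the listed RefSeq starts and the 5' end of the gene span where a strand was given (1067 of the 1328 genes of chromosome 4), and either end otherwise. Exons and introns were not told apart. Sharing counts equalled those of bedtools 2.31.1 on simulated lists (95083 of 106132 peaks) and on the deposited ones. The reading direction of the promoters was checked in 113 overlapping pairs of opposite strand, each with equal sequence.

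The members and gene lists were chosen with earlier results of these data known. Genes were named from the strongest genotype-only peaks, the largest differences of assigned genotype-only peaks, the highest and the most different pairs, the most extreme blocks, the listed members open in 1 list only, and a set of always described genes, and some of the genes so chosen are not reported here. The gene-body counts, the stretch and the interferon array were chosen after seeing the data. Alternatives were a stricter −log10 p, the upper 50% by signal, lists of equal length, a reciprocal overlap of 50%, other blocks and windows, and other rankings. Sharing was computed anew in each cut list.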

Additional observations from a re-analysis of the deposited data

How the results depend on the processing

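No paired analysis was possible because each genotype has 1 combined list, and no library could be left out. Depth is unknown, so weak peaks limit every count of genotype-only peaks. A −log10 p of at least 5 kept 6240 of the 6241 WT peaks and all 5338 KO peaks of chromosome 4. No value moved beyond its counting interval there, but so small a cut could hardly move one. It therefore says nothing about stability. The KO peak number as a percent of WT moved to 90.9% with lists of equal length (where the genome stands at 100% by construction) and to 82.4% without the stretch. With a reciprocal overlap of at least 50%, 62.2% of the WT list and 72.7% of the KO list on chromosome 4 counted as shared. WT-only peaks then numbered 2359, with 7.55% at a gene start, and KO-only peaks 1456, with 10.7% there. In lists cut by signal, length or −log10 p, sharing was computed anew among the kept peaks. A peak whose partner was cut then counted as genotype-only. Counted so, WT-only peaks numbered 816 in the upper 50% by signal, 897 in lists of equal length and 751 at a −log10 p of at least 10. By the sharing of the full lists, 146 WT-only and 58 KO-only peaks of chromosome 4 stood in the upper 50%. KO-only peaks numbered 252 in the upper 50%, 318 at a −log10 p of at least 10 and 348 without the stretch. Shared WT peaks were 79.5% in lists of equal length and 73.2% without the stretch, and shared KO peaks 88.3% at a −log10 p of at least 10 and 92.3% without the stretch. The share of WT-only peaks at a gene start was 7.48% in the upper 50%, 6.52% at a −log10 p of at least 10, 13.6% with a window of 2.5 kb (7.52% for KO-only peaks) and 6.57% with either end of every gene. Genes open in WT only numbered 40 in the upper 50%, where a KO start peak below the cut counted as absent. Pairs higher in KO were 20.8% in the upper 50%, 21.1% in lists of equal length, 19.4% at a −log10 p of at least 10, 16.8% without the stretch, 30.6% by rank among pairs and 36.9% with signal divided by width. Of 26 named genes, the balance of genotype-only peaks was -1 for Foxo6 and -1 for Wnt4 in the upper 50% by signal. Their KO-only peaks all lay below that cut. Another 17 genes moved by over 1.5 times there, 16 by gene body and 18 at a −log10 p of at least 10 (there Id3 from 0 to -2). None of the 20 named pairs changed direction. The −log10 p of 10, the either-end rule, the stretch and the pair rankings were chosen after seeing the data. The causes of these shifts were not tested.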
